A study of Mus musculus with 6 samples.

Results

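RGS genes encode regulators of G protein signalling, proteins that speed the hydrolysis of GTP by G alpha subunits and so shorten the signal of a G protein-coupled receptor. They share an RGS domain and fall into subfamilies by the domains around it, among them R7, which is stabilised by the G beta subunit encoded by Gnb5, R4, which consists of little more than the RGS domain, R12 and RZ. In the striatum and the amygdala they act on the receptors for dopamine, opioids, glutamate, acetylcholine and serotonin. The 10 genes described here are Rgs9 and Rgs7 (R7), Rgs8, Rgs4, Rgs2 and Rgs16 (R4), Rgs10 and Rgs14 (R12), and Rgs20 and Rgs17 (RZ). They were taken by gene symbol from the array's annotation, which gave them 22 probe sets of the 45101 in the table. The family was chosen by the higher array level of Rgs9 in zinc diet mice than in control diet mice, and the question was whether other members had it too. The difference between the diets is therefore given for these 10 genes as a description, with no test.

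The data were RNA levels in the amygdala of 3 mice on the zinc diet (replicates 3, 7 and 10 of the labels) and 3 mice on the control diet (replicates 1, 9 and 11), with 1 array per mouse. All 6 were male 129S1/SvImJ (S1) mice of 8 to 10 weeks, an inbred strain known for poor fear extinction, and all had fear extinction training 2 h before the tissue was taken. The labels call the diet Zn or ZnR and give neither its zinc content nor the meaning of the R, which could stand for a restricted supply. Zinc diet is used here as a name only, and the labels do not say if its zinc supply was above or below that of the controls. Array medians lay between 4.04 and 4.09 on the log2 scale in zinc diet mice and between 4.06 and 4.09 in control diet mice. The amygdala was dissected whole. All 13 amygdala markers with a probe set were measured above the filter, a mean log2 level of at least 4 over the 6 arrays. Their mean log2 level per mouse was 8.87 to 8.97 in zinc diet mice and 8.67 to 8.86 in control diet mice, without overlap. Of the 13, 3 had zinc diet mice all above and 1 all below the control diet mice, beside 8.12% and 5.55% of all named genes tested. Choroid plexus markers spread widely, from 5.62 to 6.56 in zinc diet mice and from 6.09 to 9.28 in control diet mice. The spread among control diet mice came from replicate 9 (9.28), while replicates 1 and 11 had 6.38 and 6.09. Of the 4 choroid plexus markers tested, 2 had zinc diet means below the filter and passed it through control diet replicate 9. In tissue of many cell types, fewer cells of a type and less RNA per cell cannot be told apart.

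Of the 22 probe sets, 17 passed the filter, and each of the 10 genes had at least 1. A gene is described by its brightest probe set unless another is named. On these, the diets were separate with zinc diet mice higher for 4 of the 10 genes, Rgs9, Rgs8, Rgs4 and Rgs2, where 8.12% of the 11221 named genes tested did so. They were separate with zinc diet mice lower for 0 of the 10, where 5.55% of named genes did so. Among the 17 probe sets above the filter, 5 were separate with zinc diet mice higher and 0 with zinc diet mice lower, beside 6.66% and 5.33% of all 22877 probe sets tested. Because the genes were proposed from this comparison, nothing is read from these counts. The differences, zinc diet minus control diet, had a median log2 value of 0.096, and of 0.061 over the 9 genes without Rgs9, against a median of 0.012 over all named genes tested. The difference was under 0.25 in size for 8 of the 10 genes, and the exceptions were Rgs9 and Rgs8. The share of all named genes under that size was not computed, so nothing is read from this count either.

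The 4 genes whose zinc diet mice all lay above the control diet mice had unlike differences, 1.80 (Rgs9), 0.52 (Rgs8), 0.14 (Rgs4) and 0.15 (Rgs2). Their promoter sequences are shown as a description only, since no shared difference is established. Each is the 250 bases before a transcription start, 5′ to 3′ on the gene's strand, from RefSeq on mouse build GRCm38.p6. RefSeq windows were at hand for 8 of the 10 genes. Capitals mark 3 motifs, searched on both strands: the short CRE (TGACG) and the metal response element core (TGCACNC or TGCGCNC), which are bound by CREB and by the zinc-sensing factor MTF1, and the TATA box (TATAAA). Rgs8 has 3 windows, of which the one with the lowest coordinates is printed.
Rgs9, chr11:109298182-109298431, minus strand: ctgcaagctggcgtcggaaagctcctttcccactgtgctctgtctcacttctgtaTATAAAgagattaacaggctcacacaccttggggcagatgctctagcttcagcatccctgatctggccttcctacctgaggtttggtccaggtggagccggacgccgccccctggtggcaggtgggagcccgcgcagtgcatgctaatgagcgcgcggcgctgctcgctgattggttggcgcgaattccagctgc
Rgs8, chr1:153652787-153653036, plus strand: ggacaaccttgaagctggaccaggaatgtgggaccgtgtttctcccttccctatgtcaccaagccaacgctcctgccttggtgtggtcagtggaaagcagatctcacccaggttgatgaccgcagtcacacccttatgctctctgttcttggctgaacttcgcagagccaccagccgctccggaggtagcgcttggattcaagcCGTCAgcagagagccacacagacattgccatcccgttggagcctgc
Rgs4, chr1:169747643-169747892, minus strand: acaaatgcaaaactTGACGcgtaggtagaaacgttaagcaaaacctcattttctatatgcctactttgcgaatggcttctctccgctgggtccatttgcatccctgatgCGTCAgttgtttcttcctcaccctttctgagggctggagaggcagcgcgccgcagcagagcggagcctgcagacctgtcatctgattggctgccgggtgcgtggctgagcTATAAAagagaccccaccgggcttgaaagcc
Rgs2, chr1:144004150-144004399, minus strand: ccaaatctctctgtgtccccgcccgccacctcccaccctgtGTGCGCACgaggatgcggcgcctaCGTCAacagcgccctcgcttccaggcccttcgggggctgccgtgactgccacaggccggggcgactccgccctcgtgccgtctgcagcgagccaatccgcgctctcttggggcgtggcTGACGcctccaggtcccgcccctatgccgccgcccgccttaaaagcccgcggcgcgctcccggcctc

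The 4 printed windows had no marked motif in common. The Rgs9 window held a TATA box that began 195 bases before the start and neither of the other marked motifs. The printed Rgs8 window held 1 short CRE, 46 bases before the start, while each of its 2 other windows held a metal response element core. The Rgs4 window held 2 short CREs, 236 and 141 bases before the start, and a TATA box 31 bases before it. The Rgs2 window held 2 short CREs, 185 and 67 bases before the start, and 2 overlapping matches of the metal response element core, on opposite strands, 209 and 208 bases before it. Among all 32851 windows of this length, 17.8% held a short CRE, 21.4% the metal response element core and 12.4% a TATA box. The full CRE (TGACGTCA, which contains the short CRE) was found in 1.55% of them and in 0 of the 10 windows of these genes. These are matches of letters only.

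Rgs9 is the R7 member known for its striatal splice form, which restrains dopamine and opioid signalling in medium spiny neurons. Its brightest probe set had log2 levels of 7.67, 7.99 and 7.82 in zinc diet replicates 3, 7 and 10, against 5.77, 6.14 and 6.19 in control diet replicates 1, 9 and 11. The lowest zinc diet mouse lay 1.49 above the highest control diet mouse, which is several times the spread within either diet. The means were 7.83 ± 0.16 in zinc diet mice and 6.03 ± 0.23 in control diet mice (SD, n = 3 each), a difference of 1.80 ± 0.14 (SE) or 3.47-fold. Rgs9 has 2 dimmer probe sets, both with means below the filter, where a level cannot be told from background. One of them gave 3.81, 3.75 and 3.28 in zinc diet replicates 3, 7 and 10, against 3.06, 2.88 and 2.67 in control diet replicates 1, 9 and 11, again without overlap, a difference of 0.74 ± 0.16 (SE, fit with no filter). The other gave 2.58 ± 0.060 in zinc diet mice and 2.55 ± 0.16 in control diet mice (SD, n = 3 each). The description of Rgs9 therefore rests on its brightest probe set.

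Rgs7, the other R7 member here, is expressed widely in the brain and regulates G protein-gated potassium channels. It had 10.93, 10.96 and 11.01 in zinc diet replicates 3, 7 and 10, against 10.77, 11.21 and 11.07 in control diet replicates 1, 9 and 11. The zinc diet mice lay close together, inside the range of the control diet mice. The difference was -0.050 ± 0.12 (SE), and it depended on single mice. It was 0.047 without control diet replicate 9, -0.025 without control diet replicate 11, -0.029 without zinc diet replicate 3, and -0.17 without control diet replicate 1, where zinc diet mice were lower without overlap. The closest relative of Rgs9 in this group therefore did not show the separation seen for Rgs9.

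**Figure D1:**
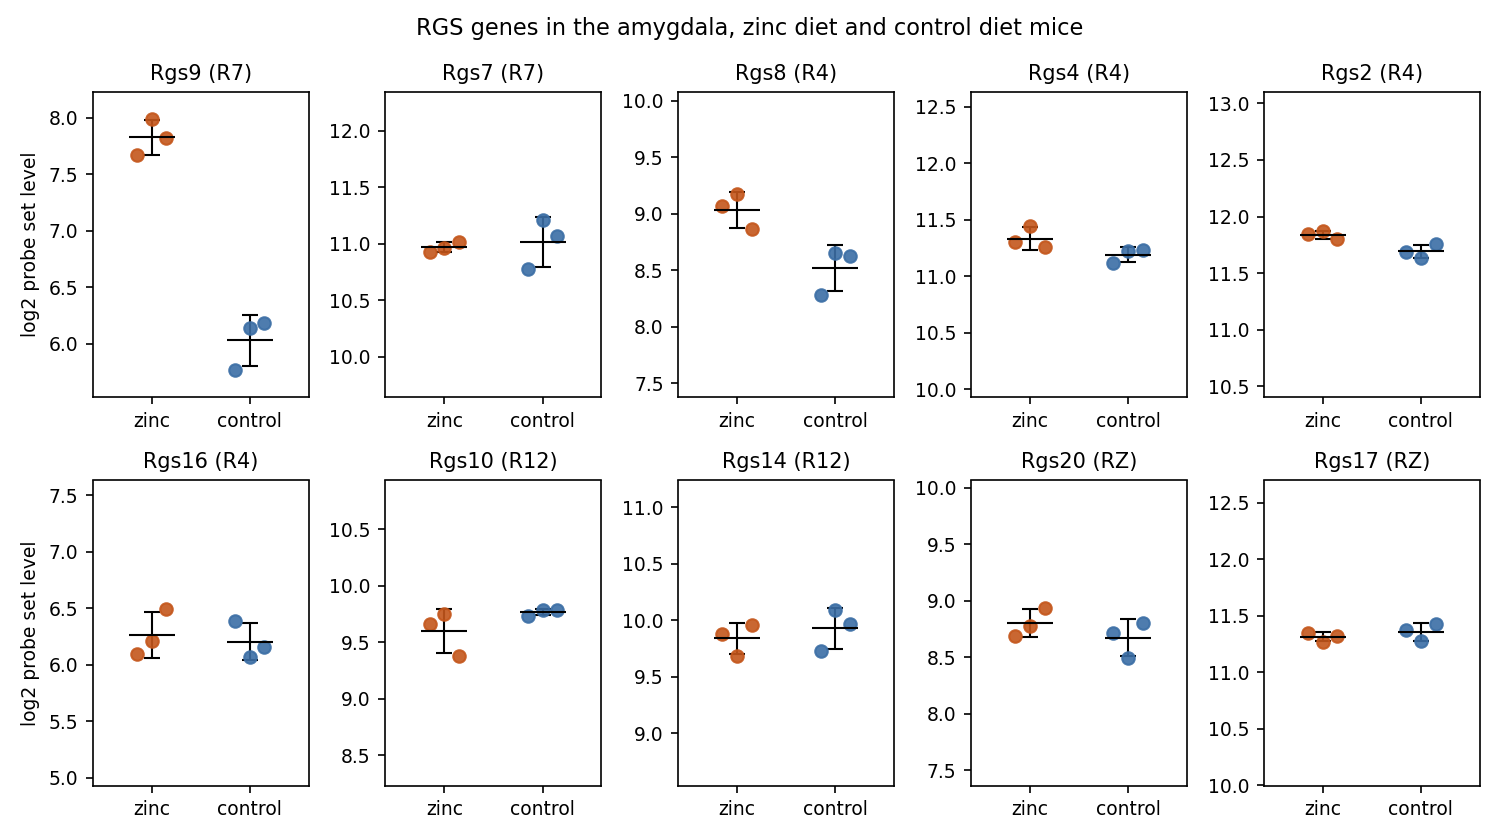
Log2 level of the brightest probe set of each RGS gene (vertical axis, each panel spans the same 2.7 log2 units) in zinc diet mice (left, orange) and control diet mice (right, blue). Points are mice, the long bar is the mean and the whiskers are the SD (n = 3 each). Rgs9 has the widest gap, with zinc diet mice at 7.67 to 7.99 and control diet mice at 5.77 to 6.19, Rgs8 a smaller one, and Rgs4 and Rgs2 gaps of 0.022 and 0.044.

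Among the R4 genes, Rgs8 differed most. It is best known from cerebellar Purkinje cells, where it acts on Gi and Gq signalling. Its single probe set had 9.07, 9.17 and 8.86 in zinc diet replicates 3, 7 and 10, against 8.28, 8.65 and 8.62 in control diet replicates 1, 9 and 11. The diets did not overlap, with a gap of 0.21 between them. The difference was 0.52 ± 0.13 (SE), or 1.43-fold. Without control diet replicate 1, the lowest of the 6 mice for both Rgs8 and Rgs9, it was 0.40. Zinc diet replicate 7 was the highest for both.

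Rgs4, a brake on Gi and Gq signalling in many forebrain neurons, had 11.30, 11.44 and 11.25 in zinc diet replicates 3, 7 and 10, against 11.11, 11.22 and 11.23 in control diet replicates 1, 9 and 11. The diets were separate by only 0.022, and the difference was 0.14 ± 0.083 (SE), or 0.087 without zinc diet replicate 7. With the arrays quantile normalized the diets overlapped. Its 2 other probe sets gave differences of 0.13 ± 0.18 and 0.24 ± 0.36 (SE), with the diets overlapping. On the dimmest of the 3, the levels were 8.07, 8.05 and 7.22 in zinc diet replicates 3, 7 and 10, against 7.28, 8.26 and 7.09 in control diet replicates 1, 9 and 11. There the 6 mice split across the diets, with zinc diet replicates 3 and 7 and control diet replicate 9 high and the other 3 mice low. The same split was seen on the middle Rgs4 probe set, with 10.87, 10.82 and 10.91 in those 3 mice, against 10.49, 10.59 and 10.31 in zinc diet replicate 10 and control diet replicates 1 and 11. It was also seen on the dimmest probe set of Rgs7bp, the membrane anchor of R7 proteins.

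An RNA quality measure from Gapdh ranked the mice in the order of this split, and that from Actb did so only in part. The array carries probe sets at both ends of the Gapdh transcript, and the log2 level at the 3′ end minus that at the 5′ end was -0.18, -0.12 and -0.12 in zinc diet replicates 3, 7 and 10, against -0.044, -0.15 and -0.065 in control diet replicates 1, 9 and 11. The 3 mice with low Rgs4 on the dim probe sets were those with the highest values of it, although zinc diet replicates 7 and 10 were nearly equal. For Actb, the same measure was highest in zinc diet replicate 10 (0.90) and in control diet replicate 11 (0.94). The remaining mice had 0.75 to 0.79, among them control diet replicate 1 (0.78), which was low for Rgs4 on the dim probe sets. Their part in the Rgs4 values was not tested.

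**Figure D2:**
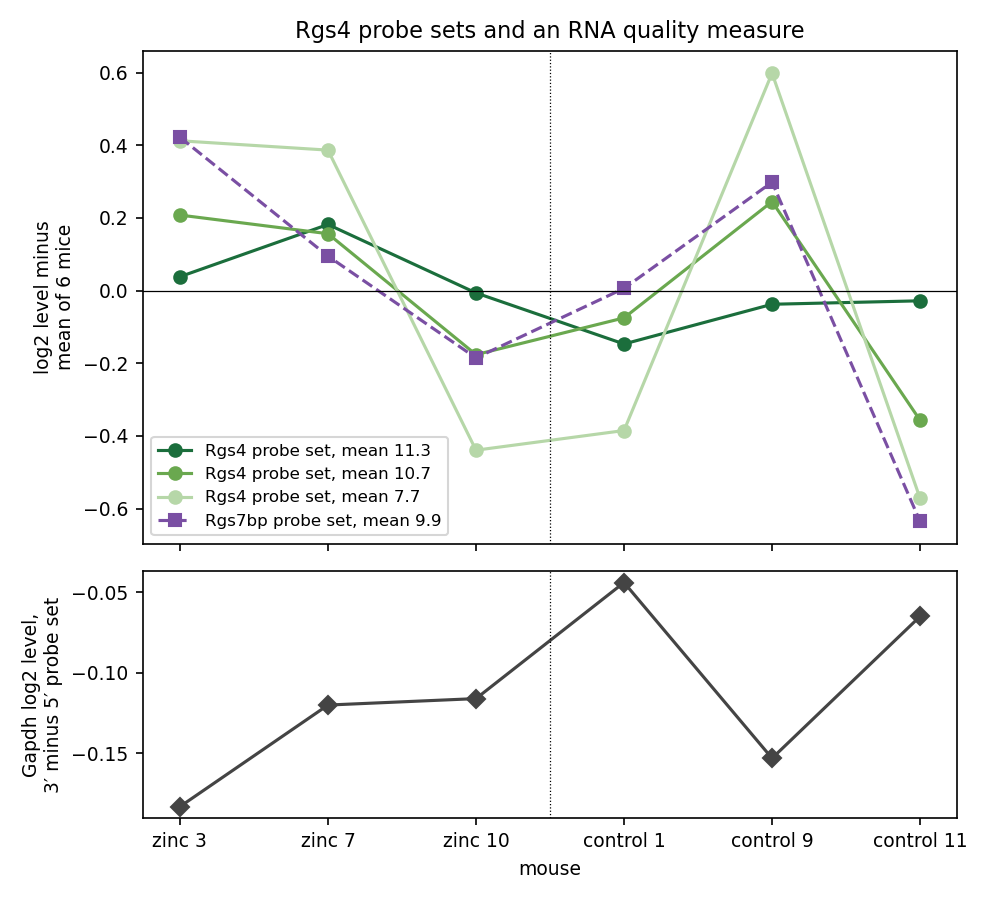
Upper panel, log2 level minus the mean of the 6 mice for the 3 probe sets of Rgs4 (green) and the dimmest of Rgs7bp (purple, dashed), by mouse, with zinc diet mice left of the dotted line and control diet mice right of it. Lower panel, the Gapdh log2 level at the 3′ end minus the 5′ end in the same mice. The dimmest Rgs4 probe set and that of Rgs7bp are low in control diet replicate 11 and zinc diet replicate 10, whereas the brightest Rgs4 probe set stays within 0.33 over all mice.

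Rgs2, which acts chiefly on Gq and is induced by neuronal activity, had 11.85, 11.87 and 11.80 in zinc diet replicates 3, 7 and 10, against 11.68, 11.63 and 11.75 in control diet replicates 1, 9 and 11. The diets were separate by 0.044, and the difference was 0.15 ± 0.072 (SE), or 1.11-fold. Its next brightest probe set, of a design that can match related transcripts, was also without overlap, at 0.17 ± 0.082 (SE). The next gave 0.13 ± 0.084 (SE) with 1 control diet mouse inside the zinc diet range, and the dimmest was below the filter. Thus the 3 probe sets above the filter gave like differences, all small. Of 22 immediate early genes, the class induced by neuronal activity, 21 were tested, and 3 were separate with zinc diet mice higher, beside 8.12% of named genes. The mean log2 level of that list was 8.69 to 9.11 in zinc diet mice and 8.67 to 9.01 in control diet mice, so it did not separate the diets.

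Rgs16, known for its daily rhythm in the brain's circadian clock, did not separate the diets. It had 6.10, 6.21 and 6.49 in zinc diet replicates 3, 7 and 10, against 6.39, 6.07 and 6.15 in control diet replicates 1, 9 and 11. The difference was 0.061 ± 0.13 (SE), and its sign and size depended on single mice. It was -0.051 without zinc diet replicate 10, -0.0059 without control diet replicate 9, 0.036 without control diet replicate 11, 0.14 without zinc diet replicate 3 and 0.15 without control diet replicate 1. On its second probe set above the filter the difference was 0.14 ± 0.15 (SE), also with overlap. Rgs16 and Rgs8 lie side by side on chromosome 1, with 1 annotated gene, a long noncoding RNA, between them, and 6 of the 10 genes are on that chromosome.

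The R12 genes overlapped between the diets. Rgs10, which is abundant in microglia and found in neurons too, had 9.66, 9.75 and 9.38 in zinc diet replicates 3, 7 and 10, against 9.73, 9.78 and 9.78 in control diet replicates 1, 9 and 11. The control diet mice lay within 0.052 of each other, and zinc diet replicate 10 was the lowest of all. The difference was -0.17 ± 0.11 (SE), the lowest of the 10 genes, and -0.060 without zinc diet replicate 10. With the arrays quantile normalized it was -0.19, with zinc diet mice lower without overlap. The 10 microglia markers tested had a mean log2 level of 7.38 to 7.42 in zinc diet mice and 7.35 to 7.49 in control diet mice. In zinc diet replicate 10 it was 7.41. The part of these markers in the Rgs10 values was not tested.

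Rgs14, which limits synaptic plasticity in hippocampal area CA2 and binds Ras proteins and inactive G alpha subunits as well, had 9.88, 9.69 and 9.96 in zinc diet replicates 3, 7 and 10, against 9.73, 10.09 and 9.97 in control diet replicates 1, 9 and 11. The difference was -0.086 ± 0.12 (SE), with the diets overlapping, and it depended on single mice. It was -0.0091 without zinc diet replicate 7, -0.0067 without control diet replicate 9, -0.14 with zinc diet replicate 10 left out, and -0.19 without control diet replicate 1, where zinc diet mice were lower without overlap. Of 4 CA2 markers tested, 2 had zinc diet mice all above and 1 had them all below the control diet mice, beside 8.12% and 5.55% of named genes. Their mean log2 level was 8.65 to 8.84 in zinc diet mice and 8.58 to 8.97 in control diet mice.

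The RZ genes, which prefer the Gi-like subunit encoded by Gnaz and carry a string of cysteines that anchors them to membranes, overlapped between the diets on every probe set. Rgs20 had 8.69, 8.78 and 8.94 in zinc diet replicates 3, 7 and 10, against 8.72, 8.49 and 8.81 in control diet replicates 1, 9 and 11, a difference of 0.13 ± 0.11 (SE). It was 0.041 without control diet replicate 9, 0.064 without zinc diet replicate 10 and 0.20 without control diet replicate 11. Its dimmer probe set above the filter gave 0.18 ± 0.11 (SE), and its dimmest, below the filter, 0.26 ± 0.13 (SE, fit with no filter). Rgs17 had 11.35, 11.27 and 11.33 in zinc diet replicates 3, 7 and 10, against 11.38, 11.27 and 11.42 in control diet replicates 1, 9 and 11. All 6 mice lay within 0.15, the narrowest range among the brightest probe sets of the 10 genes, and the difference was -0.044 ± 0.075 (SE). It was -0.010 without control diet replicate 11, -0.022 without zinc diet replicate 7, and -0.086 without control diet replicate 9, where zinc diet mice were lower without overlap. The 2 probe sets of Rgs17 gave nearly the same differences (-0.044 and -0.046).

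**Figure D3:**
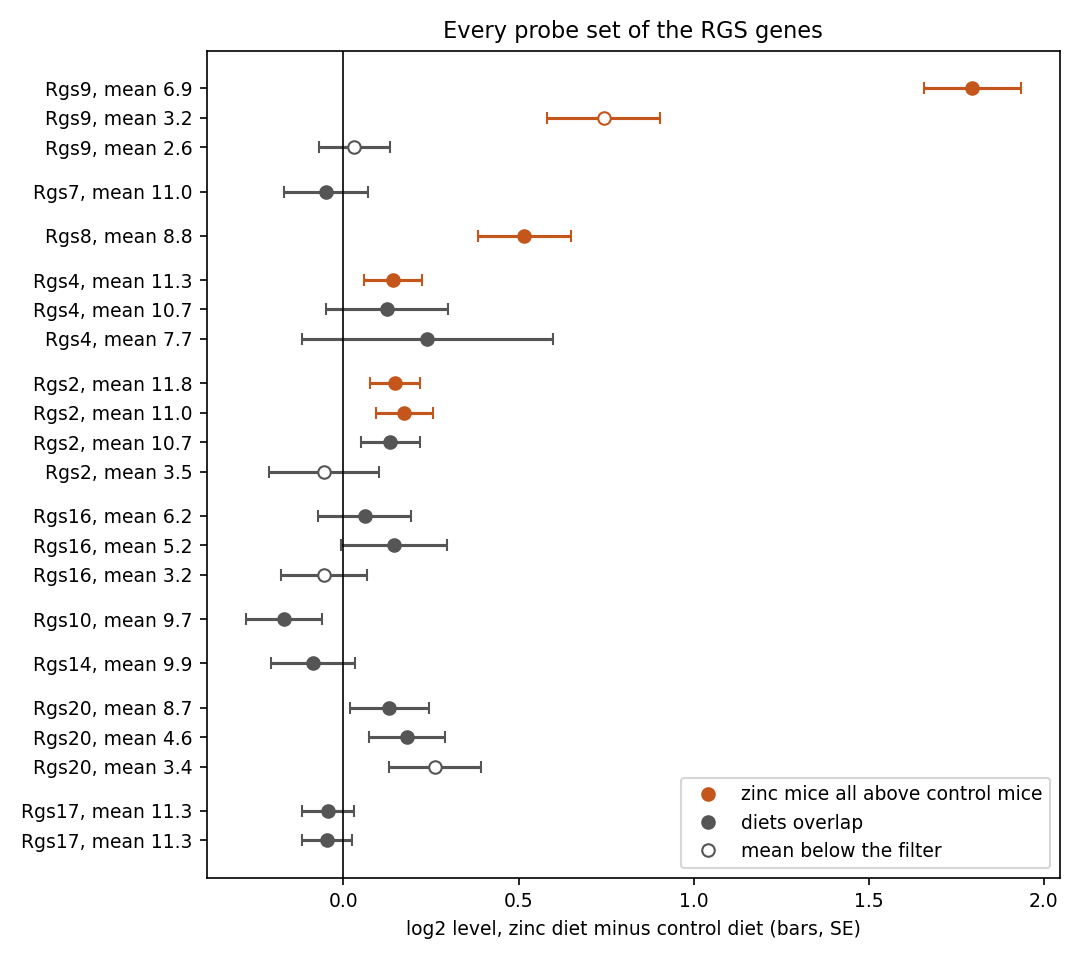
Difference in log2 level, zinc diet minus control diet (horizontal axis), with SE bars, for all 22 probe sets of the 10 RGS genes, each labelled with its mean log2 level. Orange marks probe sets whose zinc diet mice are higher without overlap, and open symbols those below the filter (SE from the fit with no filter). The Rgs9 probe sets at 1.80 and 0.74 and the one of Rgs8 (0.52) lie farthest right, and all others lie between -0.17 and 0.26.

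On the measure used here, the log2 profile of Rgs9 was closer to those of some genes outside the family than to that of any member. Likeness was measured as the root mean square difference between 2 log2 profiles over the 6 mice, each centred on its own mean, so that 0 is an identical pattern. Over 11220 other named genes the median was 0.91. The 6 genes outside the family with the smallest values were Drd2 (0.19), the dopamine D2 receptor, Ppp1r1b (0.22), the dopamine-regulated phosphatase inhibitor DARPP-32, Ido1 (0.26), a tryptophan-degrading enzyme, Isl1 (0.28), a LIM homeobox factor, Sh3rf2 (0.30), and Mme (0.39), the peptide-degrading enzyme neprilysin. Control diet means of Ido1 (3.49) and Sh3rf2 (3.87) lay below the filter, so these genes passed it through the zinc diet mice, and their likeness rests on control levels that cannot be told from background. The first 4 of these 6 genes are in the list of striatal medium spiny neuron markers. That list was chosen with earlier results of these data known, so this is a description only. Rgs8 was the nearest member, at 0.65 and rank 81, and Rgs4, Rgs2 and Rgs20 followed at 0.83, 0.84 and 0.86. The other 5 members lay between 0.905 and 0.997. The measure rests on the same 6 arrays and mostly on the difference between the diets. It depends on the size of that difference, so members that differ little between the diets are far from Rgs9 by construction.

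**Figure D4:**
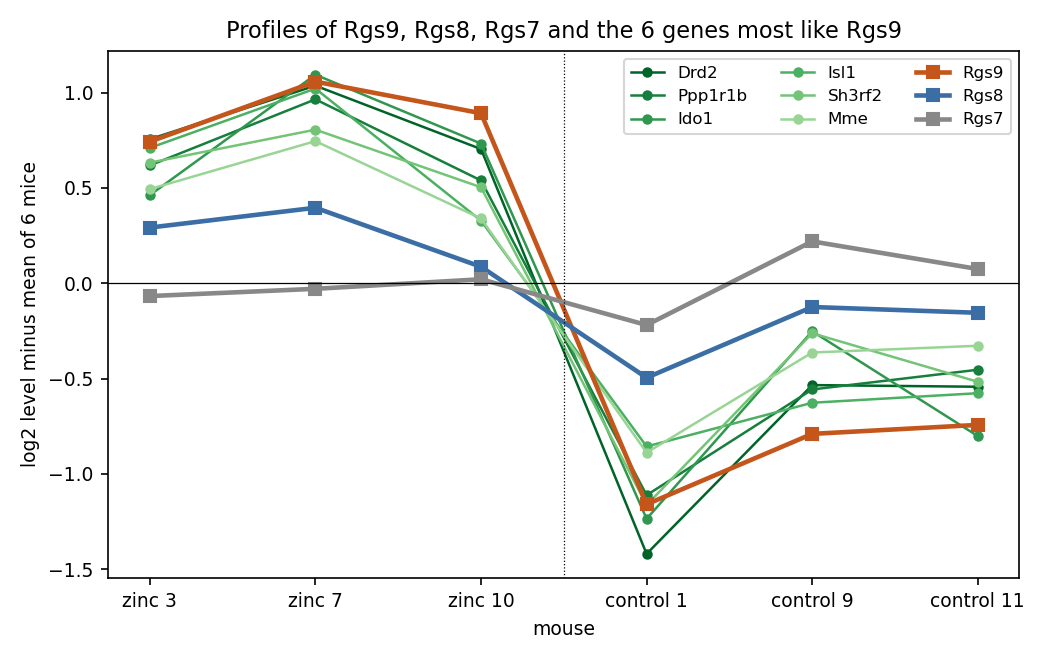
Log2 level minus the mean of the 6 mice (vertical axis), by mouse, with zinc diet mice left of the dotted line and control diet mice right of it, for Rgs9 (orange), Rgs8 (blue), Rgs7 (grey) and the 6 genes outside the family most like Rgs9 (green). The green profiles run close to Rgs9, with distances of 0.19 to 0.39. Rgs8 is also higher in zinc diet mice, by less, and Rgs7 varies little among zinc diet mice.

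Markers of striatal medium spiny neurons moved with Rgs9 and Rgs8. Of 22 genes listed, 20 had a probe set and all of them passed the filter. In 17 of the 20 the diets were separate with zinc diet mice higher, beside 8.12% of named genes, and the median difference of the 20 was 0.77. The list was chosen with earlier results of these data known, so this count is a description only. Ido1 and Syndig1l, both among the 17, had control diet means below the filter. Over the 18 genes with both means above it, a condition chosen after seeing the data, 15 were separate and the median was 0.77. The mean log2 level of the list was 9.04, 9.32 and 9.01 in zinc diet replicates 3, 7 and 10, against 7.97, 8.25 and 8.23 in control diet replicates 1, 9 and 11. Zinc diet replicate 7 was thus the highest and control diet replicate 1 the lowest, as for Rgs9 and Rgs8. Zinc diet replicate 7 was also the highest for the 9 myelin markers tested, whose mean log2 level was 9.90 to 10.60 in zinc diet mice and 9.45 to 10.05 in control diet mice. The part of these markers in the Rgs9 and Rgs8 values was not tested.

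The proteins that work with RGS proteins were examined as 6 lists of 95 genes, of which 65 had a probe set above the filter. In limma's fit across all 22877 probe sets, 0 of the 65 passed an adjusted p of 0.05, as did 0 of all probe sets (0.0%). At an unadjusted p under 0.05, 9 of the 65 (13.8%) were higher and 0 lower in zinc diet mice, where 4.36% of named genes were higher and 2.68% lower (7.04% in all). The 6 lists were chosen with earlier results of these data known, so these counts are a description only. Of all probe sets tested, 6.38% had an unadjusted p under 0.05 and 1.53% one under 0.01. Of the 65 genes, 3 are also in the striatal list. The median difference was 0.056.

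Among the partners of R7 proteins, 3 of 5 were tested. Gnb5, the G beta subunit without which R7 proteins are unstable, had 11.33, 11.29 and 11.27 in zinc diet replicates 3, 7 and 10, against 11.06, 11.28 and 11.19 in control diet replicates 1, 9 and 11. The diets overlapped, and the difference was 0.12 ± 0.082 (SE, limma adjusted p = 0.87). Rgs7bp, which anchors R7 proteins at the membrane, gave 0.12 ± 0.091 (SE) on its brightest probe set, with overlap, 0.32 ± 0.10 on the next, without overlap, and 0.22 ± 0.26 on the dimmest. Gpr158, an orphan receptor that binds Rgs7, was higher in all zinc diet mice, at 6.58 ± 0.11 against 6.27 ± 0.16 in control diet mice (SD, n = 3 each), but did not pass (limma adjusted p = 0.73). Rgs9bp, the anchor known from photoreceptors, was below the filter.

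The G alpha subunits, the substrates of RGS proteins, showed 0 of 11 tested genes without overlap between the diets, and their median difference was 0.014. Gnai1 and Gnao1, targets of most R4 and R7 proteins, differed by -0.024 ± 0.066 and -0.036 ± 0.12 (SE), Gnaq, the target of Rgs2, by -0.011 ± 0.075, and Gnaz by 0.053 ± 0.078. These 4, and Gnal, were named after their values were seen. Gnal, the stimulatory subunit of striatal neurons, stood apart with 0.50 ± 0.29 (SE), yet its diets overlapped (limma adjusted p = 0.84).

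Among 11 G beta and gamma subunits tested, Gng7, which pairs with the Gnal product in striatal neurons, had 9.68, 9.90 and 9.75 in zinc diet replicates 3, 7 and 10, against 9.17, 9.26 and 9.41 in control diet replicates 1, 9 and 11. The difference was 0.50 ± 0.098 (SE, limma adjusted p = 0.41). Gng12 gave 0.093 ± 0.067 (SE), also without overlap, but 0.043 ± 0.14 (SE) with overlap on its dimmer probe set. The other 9 genes overlapped. The 2 genes without overlap, of 11, stand beside 8.12% of named genes.

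Among 15 receptors tested that signal through Gi, Go or Gq, 6 were separate with zinc diet mice higher and 0 with them lower, beside 8.12% and 5.55% of named genes. The median difference was 0.13. Htr1b, the serotonin 1B receptor, had 9.51, 9.46 and 9.39 in zinc diet replicates 3, 7 and 10, against 8.94, 8.87 and 9.002 in control diet replicates 1, 9 and 11, a difference of 0.52 ± 0.076 (SE, limma adjusted p = 0.23). Drd2, the receptor on which the striatal form of Rgs9 acts, had 5.76, 6.04 and 5.71 in zinc diet replicates 3, 7 and 10, against 3.58, 4.47 and 4.46 in control diet replicates 1, 9 and 11. Its difference was 1.66 ± 0.25 (SE, limma adjusted p = 0.23), from control levels close to the filter, so its size is uncertain. The opioid receptor genes were also named after their values were seen. Oprm1 and Oprd1 were below the filter. Oprk1, at levels close to the filter, gave 0.34 ± 0.21 (SE, limma adjusted p = 0.85), with the diets overlapping.

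Of 15 effectors tested, 4 had zinc diet mice all above and 1 all below the control diet mice, beside 8.12% and 5.55% of named genes. Adcy5, the main adenylyl cyclase of striatal neurons, was higher, at 10.52 ± 0.13 against 10.13 ± 0.035 in control diet mice (SD, n = 3 each), a difference of 0.39 ± 0.088 (SE, limma adjusted p = 0.49). On its dimmer probe set above the filter the difference was 0.41 ± 0.16 (SE), with the diets overlapping. Prkcb, a protein kinase C acting below Gq, gave 0.19 ± 0.080 (SE, limma adjusted p = 0.78), and its other bright probe set 0.26 ± 0.081, both without overlap. Cacna1b, the N-type calcium channel that G proteins inhibit, gave -0.13 ± 0.078 (SE, limma adjusted p = 0.84), but its 3 other probe sets above the filter overlapped, with differences between -0.043 and 0.026.

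Of the remaining RGS domain genes, 10 were tested and 1, the sorting nexin gene Snx13, had zinc diet mice all above the control diet mice, beside 8.12% of named genes, by 0.095 ± 0.068 (SE, limma adjusted p = 0.87). The dimmer Snx13 probe set above the filter gave 0.14 ± 0.12 (SE), with overlap. The median difference of the 10 genes was 0.064, and they ranged from -0.21 to 0.13. None of these 10, which include the relatives Rgs6 and Rgs11 of the R7 subfamily, reached the size of the Rgs8 difference. Rgs6 gave -0.068 ± 0.094 and Rgs11 0.13 ± 0.28 (SE), and both were named after their values were seen.

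**Figure D5:**
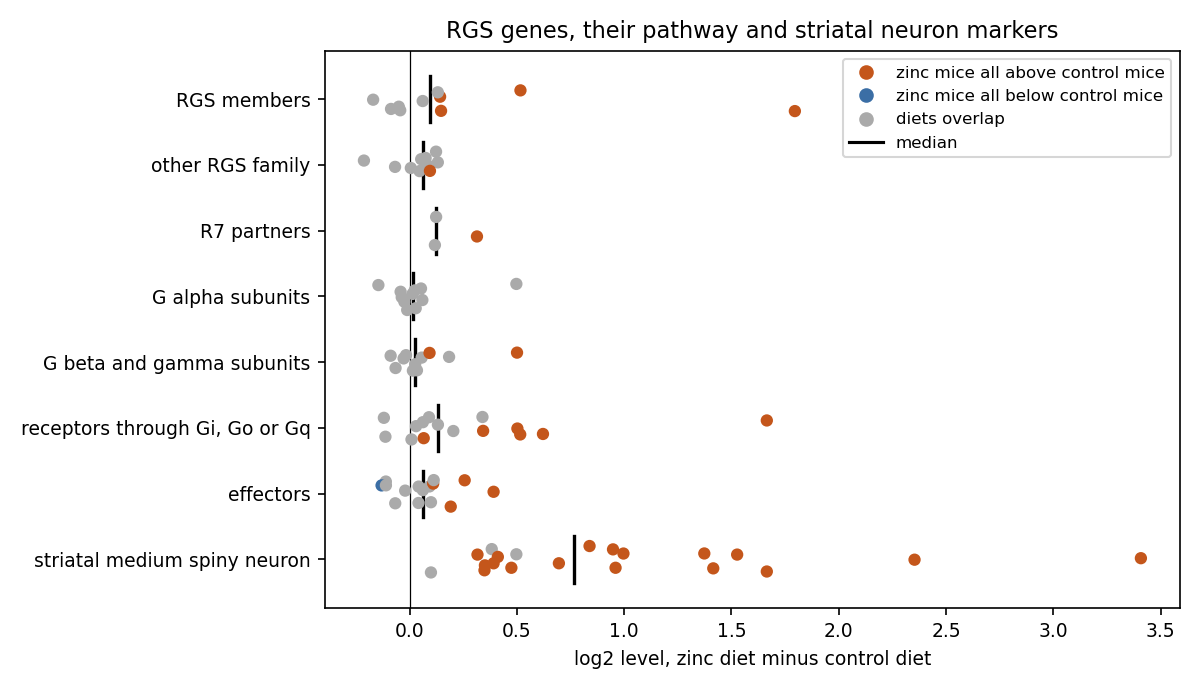
Difference in log2 level, zinc diet minus control diet (horizontal axis), of each gene tested, by list, with the median as a black bar. Orange genes have zinc diet mice higher without overlap, blue ones lower without overlap, and grey ones overlap. Among the 10 RGS genes, Rgs8 (0.52) and Rgs9 (1.80) lie farthest to the right. The striatal markers range from 0.10 to 3.41, which also takes in Rgs2 (0.15), Rgs4 (0.14) and Rgs20 (0.13).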

How the data were processed

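Amygdala RNA of 6 mice was measured on Affymetrix Mouse430_2 arrays, from 500 ng of RNA with 3′ labelling, per the labels' protocols. The deposited table holds log2 probe set levels, which the authors made with R 2.15.1 and GCRMA 2.28.0 as far as the submitters' processing notes name tools; the steps and options are not given in the sources used here, and their range gave the log2 scale. Centring is unknown, and no detection calls or raw scanner files were used here. Precision rests on having 3 arrays a diet.

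The 64 control probe sets were left out of the fit. Of 45101 probe sets, 34958 had 1 gene symbol, 932 several and 9211 none in the platform annotation. Probe sets with a mean of at least 4 were kept (22877). The fit used lmFit and eBayes of limma 3.58.1 (R 4.3.3), with diet as the only term and two-sided p-values, with Benjamini-Hochberg adjustment over all probe sets tested at 0.05. SE is the moderated standard error and SD is over the 3 mice of a diet. The labels give each sample as 1 mouse. The fit was tested on simulated data. A gene in a list stood for its brightest probe set. The members, lists and tests were chosen with earlier results of these data known. Genes named are all members, the 6 most like Rgs9, up to 2 in each direction per list with the smallest p and no overlap, Gnb5 and Rgs7bp, and those the text says were named later. Alternatives were quantile normalization, median centring, values under 4 set to 4, no filter, a filter of 6, averaging each gene's probe sets, trend and robust eBayes, and leaving out each mouse.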

Additional observations from a re-analysis of the deposited data

How the results depend on the processing

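Rgs9, Rgs8 and Rgs2 had zinc diet mice above control diet mice under every alternative run. Rgs4 lost its separation with quantile normalization and when each gene's probe sets above the filter were averaged, where Rgs20 was separate instead. The count of members with zinc diet mice all below control diet mice, 0 as reported, was 1 with quantile normalization (Rgs10) and ranged from 0 to 3 with 1 mouse left out. It was 3 without control diet replicate 1 (Rgs7, Rgs10 and Rgs14) and 1 without control diet replicate 9 (Rgs17) or zinc diet replicate 7 (Rgs10). The median difference of the members ranged from 0.0074, without zinc diet replicate 10, to 0.14, without zinc diet replicate 3, and was 0.044 without control diet replicate 9. The number of probe sets at an unadjusted p under 0.01 in limma was 349 as reported and 550 with no filter, and ranged from 176 (without zinc diet replicate 7) to 558 (without control diet replicate 1). The number of pathway genes past the adjusted threshold was 0 in every alternative run. The cause of these shifts was not tested. No paired analysis was possible because the diets share no replicate number. Levels near the filter cannot be told from background, which limits the 5 dim probe sets of Rgs9, Rgs2, Rgs16 and Rgs20.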

Other observations

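Rgs5, an R4 gene known as a marker of pericytes, has 4 probe sets above the filter, and the diets overlapped on all of them, with differences of 0.080, -0.0086, 0.20 and 0.085, zinc diet minus control diet. The 9 pericyte and endothelial markers tested had a mean log2 level of 6.72 to 6.78 in zinc diet mice and 6.63 to 6.78 in control diet mice. Rgs19, an RZ gene outside the 10 described, differed by 0.12 on both of its probe sets, with SEs of 0.086 and 0.21. Both genes were named after their values were seen.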
